A study of Mus musculus with 6 samples.

Results

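The genes described here carry fatty acids from the blood into the heart muscle cell, store them, burn them in mitochondria and peroxisomes, and allow the heart to use ketone bodies. The set holds 39 genes, given as a list of symbols, and every noncontrol probe whose gene name was on the list was taken, including 3 probes that carry the older names Adfp, Dci and Hadhsc. This gave 57 probes for the 39 genes, of 41174 noncontrol probes for 28786 gene names on the array. The list follows the genes' known roles, uses no threshold on these measurements, and was drawn up with earlier results of these data known. Heart RNA came from male C57BL/6 mice, an inbred laboratory strain. In the adrenalectomized group (3 mice) the adrenal glands, the main source of corticosterone and aldosterone, had been removed at 1 month of age. The sham group (3 mice) is labelled as sham-adrenalectomized. The hearts of both groups were taken 6 months later, and each was measured on 1 Agilent 1-colour array. The series title names glucocorticoids and the upkeep of the heart as the question, and the labels do not say whether the mice received hormone or salt replacement.

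The adult heart takes most of its energy from long-chain fatty acids. These enter through membrane transporters, are joined to coenzyme A, pass the mitochondrial membranes as carnitine esters and are shortened in beta-oxidation, whose electrons reach the respiratory chain through the electron transfer flavoproteins. Peroxisomes shorten very long and branched chains, and ketone bodies made in the liver are turned back into acetyl-CoA in heart mitochondria. Many of these genes are known targets of the PPAR family of fatty acid receptors.

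Most of this machinery was read at similar levels in adrenalectomized and sham hearts, and the clearest differences lay in a few genes outside the mitochondrial spiral. Bdh1, an enzyme of ketone use, read 1.93 times higher in adrenalectomized hearts than in sham hearts. Plin2, a coat protein of lipid droplets, read 2.01 times higher, although adrenalectomized replicate 1 was only slightly above the sham hearts. On the slide that held both groups its log2 difference was 0.29, against 1.01 over all arrays. Acox2, an oxidase of branched chains in peroxisomes, read 2.81 times higher at a low signal that was well above background on 2 of 3 sham arrays, and it was lower under normexp background correction. None of the 39 genes passed an adjusted p of 0.05 in either direction (limma, Benjamini-Hochberg over 16949 genes), against 5 genes higher (0.0295%) and 2 lower (0.0118%) among all genes tested. The smallest adjusted p-values of the set were 0.086 for Bdh1 and 0.0918 for Acox2. At a looser adjusted p of 0.1 these 2 genes were the members called higher, against 0.136% of all genes, and 0 were called lower. Acox2 entered the test through the adrenalectomized arrays, which favours a call of higher. A stricter filter, which asked for clear signal in every heart, left Acox2 untested. Bdh1 then had an adjusted p of 0.0804.

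At an unadjusted p under 0.05, 6 members (15.4%) were higher in adrenalectomized hearts and 0 were lower, against 6.27% higher and 5.99% lower among all genes. The 6 were Acox2, Bdh1, Ehhadh, Hsd17b4, Lpl and Plin2. In these genes and in Acsl1, every adrenalectomized heart lay above every sham heart, which makes 7 members (17.9%) against 10.4% of all genes. Leaving out Acox2, which entered the test through the adrenalectomized arrays, 5 of 38 members (13.2%) had an unadjusted p under 0.05 and 6 of 38 (15.8%) did not overlap. Etfa alone lay below every sham heart on every adrenalectomized array, 1 member (2.56%) against 7.95% of all genes. The other 31 genes overlapped between the groups. A set of 39 genes with related roles is not 39 independent observations, and no test of the set was made.

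**Figure D1:**
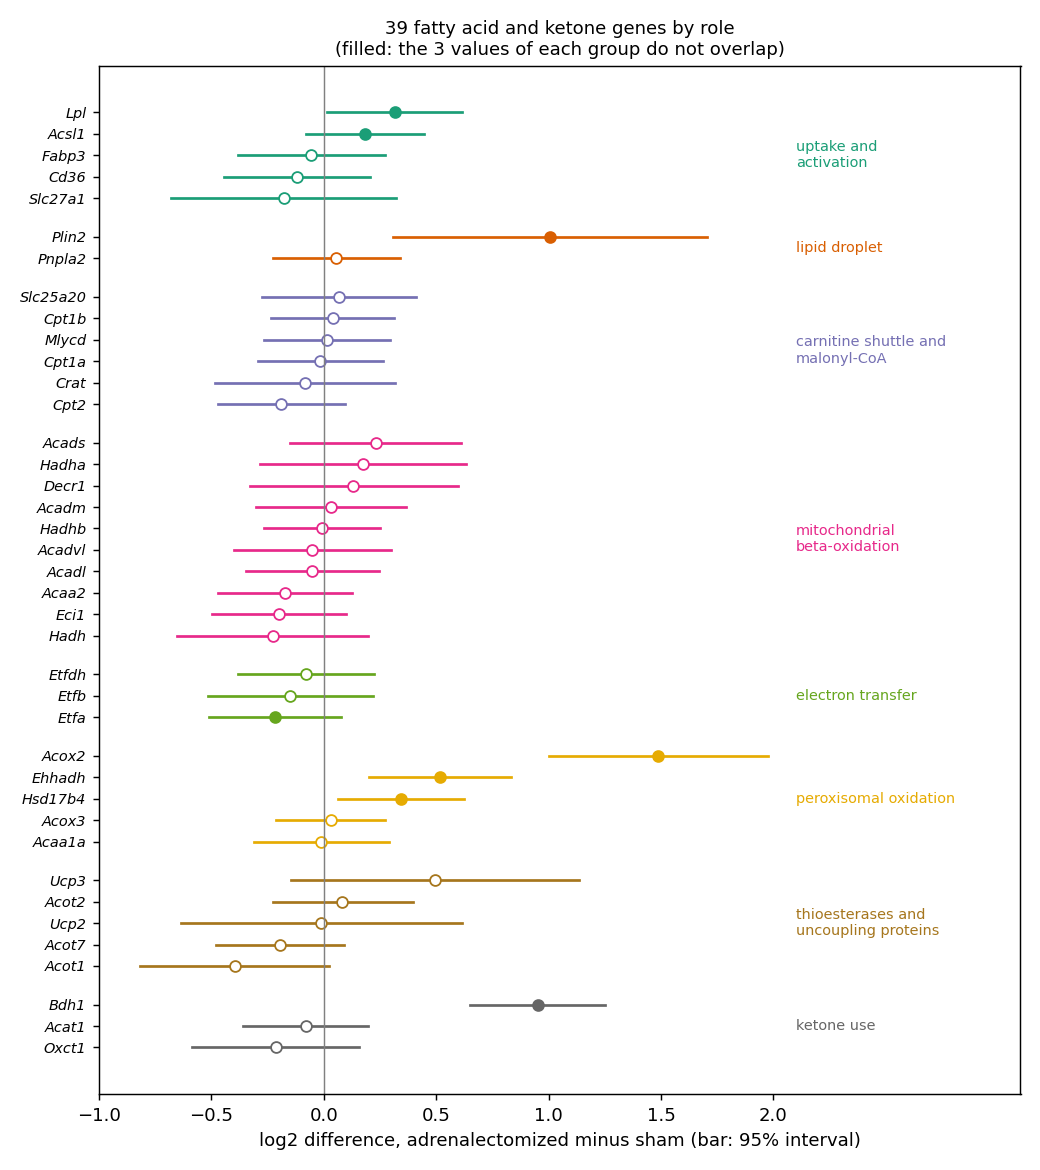
Log2 difference, adrenalectomized minus sham, of each of the 39 genes on the x axis, with its 95% interval as a bar, ordered by role down the page (3 hearts per group). Filled points mark the 8 genes whose groups do not overlap. Acox2 (1.49), Plin2 (1.01) and Bdh1 (0.95) lie farthest to the right, while the 10 genes of mitochondrial beta-oxidation lie between -0.23 and 0.23.

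The median difference over the 39 genes was -0.01 on the log2 scale, where 1 stands for a 2-fold difference, beside 0.03 over all genes tested. In 21 of 39 genes (53.8%) the mean was lower in adrenalectomized hearts, against 43.4% of all genes. The median standard error (SE) of a difference was 0.13 for the members and 0.14 for all genes. Of the members, 31 differed by 0.25 or less in either direction. The 33 genes with an unadjusted p of 0.05 or more had differences of -0.40 to 0.49. Their 95% intervals reached from -0.82 (Acot1) to 1.14 (Ucp3), with wider intervals for the genes of larger spread between hearts.

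The arrays carried the markers of heart muscle. All 10 cardiomyocyte markers examined were tested, among them Myh6, Tnnt2 and Myl2, and 0 passed the threshold, with a median difference of -0.16. From 57.7% to 66.8% of spots were well above background per array, and the 75th percentile of the signal ran from 644.1 to 923.8 intensity units. Slide 1 carried adrenalectomized replicate 1 together with the whole sham group, and slide 2 carried the other adrenalectomized replicates, with 1 scan batch per slide. Differences within slide 1 therefore rest on 1 adrenalectomized heart, which was taken to vary like the sham hearts, and they are given for the members described in full. Without adrenalectomized replicate 1 the groups lie on separate slides, so that group and slide cannot be told apart in that fit. Markers of other cells differed between the groups or between hearts as well. All 6 atrial markers (Nppa, Myl4, Myl7, Sln, Bmp10 and Pam) read lower on every adrenalectomized array than on any sham array, with a median difference of -0.66 and 0 past the threshold. The summed level of the atrial markers was 1077 to 1137 times the 75th percentile in adrenalectomized and 1364 to 2115 times in sham hearts, and none was at 0. All 3 tested erythroid markers had a higher mean in adrenalectomized hearts, with a summed level of 298 to 845 against 383 to 586 in sham hearts, and 0 passed. Their groups overlapped, and adrenalectomized replicate 3 was the lowest heart for each of them. The part of these other cells in the values below was not tested. In whole heart RNA, fewer cells of a type and less RNA per cell cannot be told apart.

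Array values below are log2 signals measured against the array's own 75th percentile, so that 0 is the signal of a probe at that percentile. A probe's brightness also depends on its sequence, and values are compared between hearts for 1 probe, not between probes. Each gene is represented by its brightest tested probe, and differences are adrenalectomized minus sham.

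Uptake begins with Lpl, the lipase that frees fatty acids from circulating triglyceride. Lpl read 8.19, 7.82 and 7.93 in adrenalectomized hearts and 7.75, 7.62 and 7.63 in sham hearts. All 3 adrenalectomized hearts were above all 3 sham hearts, by 0.32 ± 0.13 (SE, adjusted p = 0.397), a ratio of 1.24. The lowest adrenalectomized value was close to the highest sham value, and the difference was 0.53 within slide 1 and 0.21 without adrenalectomized replicate 1 (adjusted p = 0.617). A second Lpl probe differed by 0.16 ± 0.19 (SE) and its groups overlapped.

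Acsl1, the synthetase that joins fatty acids to coenzyme A in heart, read 6.71, 6.72 and 6.70 in adrenalectomized hearts and 6.56, 6.65 and 6.37 in sham hearts. The adrenalectomized hearts were nearly equal and all higher, but the difference was small, 0.18 ± 0.11 (SE, adjusted p = 0.547), 0.18 within slide 1 and 0.10 without sham replicate 3, and the other 2 Acsl1 probes differed by 0.05 and -0.004. The transporters stood close to sham. Cd36, the main fatty acid translocase of muscle, differed by -0.12 ± 0.14 (SE), and its second probe by 0.12. Slc27a1, a fatty acid transport protein, differed by -0.18 ± 0.21, and Fabp3, the binding protein that carries fatty acids through the cytosol, by -0.05 ± 0.14. Of the 5 uptake genes, 2 had higher and 3 had lower means.

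Plin2 coats the lipid droplets in which surplus fatty acid is kept as triglyceride. Its probe lies at chr4:86060498-86060557 on the minus strand of the array's design build, mm7. The first 30 of the 60 bases of the probe are printed to identify the transcript that was read:
Plin2 probe: tgtgttagtcttgtgaggacctggaggaac
Plin2 read 4.16, 5.37 and 5.10 in adrenalectomized hearts and 3.76, 3.91 and 3.94 in sham hearts. Every adrenalectomized heart was above every sham heart, but adrenalectomized replicate 1 was only slightly so, while replicates 2 and 3 stood well apart. The difference was 1.01 ± 0.30 (SE, adjusted p = 0.285). It was 0.29 within slide 1. Without adrenalectomized replicate 1 it was 1.36 (adjusted p = 0.0435), where 39 of 17673 genes (0.221%) were called higher and Plin2 was the 1 member among them. The groups then lay on separate slides, and group and slide cannot be told apart in that fit.

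Pnpla2, the lipase that opens triglyceride stores, read 5.24, 5.55 and 5.36 in adrenalectomized hearts and 5.24, 5.38 and 5.37 in sham hearts. The groups overlapped, with a difference of 0.06 ± 0.12 (SE, adjusted p = 0.88) that was -0.09 within slide 1. Its second probe differed by 0.28 ± 0.19 (SE), and the groups overlapped there too.

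The 2 adrenalectomized hearts with the most Plin2 also stood highest in adipocyte markers. The median deviation of these markers from each gene's mean over all arrays was -0.34, 1.37 and 0.91 in adrenalectomized hearts and -1.72, 0.11 and -0.43 in sham hearts. Of 15 adipocyte markers 14 were tested, 12 had a higher mean in adrenalectomized hearts and 2 (Cox7a1 and Cox8b, which heart muscle also uses) a lower one. The median difference was 1.14, and 0 passed the threshold. At an unadjusted p under 0.05, 5 of the 14 were higher and 0 were lower, beside 6.27% higher and 5.99% lower among all genes. Adipoq, which encodes the fat cell hormone adiponectin, read 1.77, 3.81 and 3.34 in adrenalectomized hearts and 0.22, 2.53 and 1.99 in sham hearts. Plin1, the droplet coat of fat cells, read 1.99, 4.13 and 3.74 in adrenalectomized hearts and 0.33, 2.36 and 1.81 in sham hearts. Both genes overlapped between the groups, and sham replicate 1 had the lowest value of each. Ucp1, the uncoupling protein of brown fat, read 4.20, 6.43 and 6.16 in adrenalectomized hearts and 1.11, 3.21 and 3.82 in sham hearts, which did not overlap. The summed level of the tested list was 1325 to 1713 times the 75th percentile in adrenalectomized and 1220 to 1620 times in sham hearts, and most of it came from Cox7a1, Cox8b and Fabp4. Without Cox7a1 and Cox8b it was 413.6 to 779.1 in adrenalectomized and 341.7 to 478.4 in sham hearts. Without Fabp4 as well, a gene that vessels also use, it was 111.0, 387.6 and 316.5 in adrenalectomized and 63.6, 138.0 and 104.5 in sham hearts. Elovl3, counted among the 12 and the 5 and in the median, had the largest difference of the list (5.27). It was well above background on 3 adrenalectomized and 0 sham arrays. It thus entered the test through the adrenalectomized arrays. Lep was above background on at most 4 arrays. The part of fat cells in the Plin2 result was not tested.

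**Figure D2:**
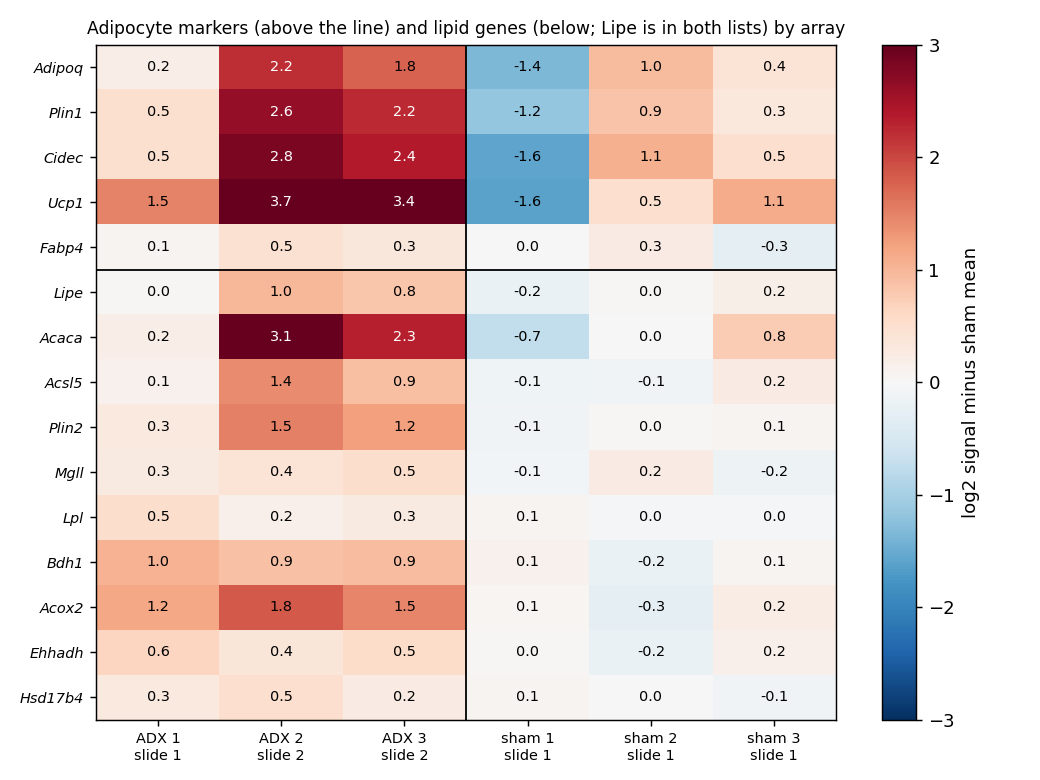
Log2 signal of each array minus the mean of the 3 sham arrays, for 5 adipocyte markers (above the horizontal line) and 10 lipid genes (below, where Lipe is also an adipocyte marker), with the adrenalectomized (ADX) arrays left of the sham arrays and the slide under each (colours stop at 3, cell text gives the value). Plin2, Acsl5, Lipe and Acaca are highest on adrenalectomized replicates 2 and 3, like Adipoq, Plin1, Cidec and Ucp1, while Bdh1 and Ehhadh are similar on all 3 adrenalectomized arrays.

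The carnitine shuttle, the entry gate of mitochondrial fatty acid oxidation, showed little difference. Its 6 genes had a median difference of 0.00, with a range from -0.19 to 0.07, and all 6 overlapped between the groups. Cpt2, which rebuilds acyl-CoA on the inner side of the membrane, read 6.72, 6.56 and 6.57 in adrenalectomized hearts and 6.88, 6.91 and 6.63 in sham hearts, a difference of -0.19 ± 0.12 (SE, adjusted p = 0.559) that was -0.09 within slide 1. Cpt1b, the muscle form of the enzyme that commits fatty acids to oxidation, differed by 0.04 ± 0.12, and Cpt1a, the liver form, by -0.01 ± 0.12. A second, dimmer Cpt1a probe was lower on all 3 adrenalectomized arrays, by -0.23 ± 0.11 (SE). Slc25a20, the carrier that exchanges acylcarnitine for carnitine, differed by 0.07 ± 0.15. Mlycd, which degrades the Cpt1 inhibitor malonyl-CoA, differed by 0.02 ± 0.12. Crat, which buffers acetyl-CoA as acetylcarnitine, read 5.88, 5.58 and 5.39 in adrenalectomized hearts and 5.63, 5.54 and 5.94 in sham hearts, and its difference of -0.08 ± 0.17 changed sign within slide 1 (0.18).

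The mitochondrial spiral of beta-oxidation held 10 genes with small differences. These ran from -0.23 to 0.23 with a median of -0.03, 4 genes had higher and 6 had lower means, and the groups of all 10 overlapped. The acyl-CoA dehydrogenases begin each turn for chains of different length. Acadvl (very long chains), Acadl (long chains) and Acadm (medium chains) differed by -0.05, -0.05 and 0.03. Acads, for short chains, read 4.04, 3.54 and 3.78 in adrenalectomized hearts and 3.57, 3.38 and 3.72 in sham hearts, a difference of 0.23 ± 0.16 (SE, adjusted p = 0.595). It was 0.48 within slide 1, and leaving out 1 array gave values from 0.10 (without adrenalectomized replicate 1) to 0.35 (without adrenalectomized replicate 2). The 2 subunits of the trifunctional protein, Hadha and Hadhb, differed by 0.17 ± 0.19 and -0.01 ± 0.11. A second tested Hadha probe, much dimmer, differed by -0.26 ± 0.25, and the third was above background on 0 arrays and was not tested.

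Later steps and the auxiliary enzymes gave values of the same size. Hadh, the dehydrogenase for shorter 3-hydroxyacyl-CoA chains, differed by -0.23 ± 0.18, with adrenalectomized replicate 3 (5.23) the lowest heart. Acaa2, the thiolase that releases acetyl-CoA, differed by -0.17 ± 0.13. Eci1, an isomerase for unsaturated fatty acids, read 6.56, 6.49 and 6.23 in adrenalectomized hearts and 6.72, 6.65 and 6.53 in sham hearts. The highest adrenalectomized heart lay just above the lowest sham heart, and the difference was -0.20 ± 0.13 (SE, adjusted p = 0.557), or -0.07 within slide 1 and -0.10 without adrenalectomized replicate 3. Decr1, a reductase for unsaturated chains, differed by 0.13 ± 0.20 with its brighter probe and by -0.08 with its dimmer one. Within slide 1, the median of the 10 genes was 0.11.

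The electron transfer flavoprotein, made of Etfa and Etfb, takes electrons from the acyl-CoA dehydrogenases, and Etfdh passes them to ubiquinone. All 3 genes had lower means in adrenalectomized hearts, although Etfa and Etfb turned positive under normexp background correction and Etfb also under quantile normalization. Etfa read 5.88, 5.80 and 5.66 in adrenalectomized hearts and 6.18, 5.90 and 5.92 in sham hearts. The groups were separated by a narrow gap, and the difference was -0.22 ± 0.12 (SE, adjusted p = 0.52), or -0.12 within slide 1 and -0.13 without sham replicate 1. Etfb read 8.66, 8.53 and 8.60 in adrenalectomized hearts and 8.87, 8.94 and 8.43 in sham hearts, where sham replicate 3 was the lowest heart of all. The difference was -0.15 ± 0.16 (SE, adjusted p = 0.725), or -0.09 within slide 1, and it ran from -0.31 (without sham replicate 3) to -0.05 (without sham replicate 2). Etfdh differed by -0.08 ± 0.13, and its second probe by -0.10.

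Peroxisomal oxidation was the role with the most non-overlapping genes, 3 of its 5 members, with a median difference of 0.34. The 3 were Acox2, Ehhadh and Hsd17b4, all higher in adrenalectomized hearts. Leaving out Acox2, 2 of 4 did not overlap and the median was 0.19. Acox2 oxidizes branched chains and bile acid precursors. Its probe covers 4390 bases of genome, chr14:6034599-6038988 on the minus strand of mm7, with only 60 bases of its own, so that it joins sequences that lie apart in the gene. It is printed whole for that reason, with the first 30 of the 60 bases of the Ehhadh probe, which lies at chr16:21411280-21411339 on the minus strand:
Acox2 probe: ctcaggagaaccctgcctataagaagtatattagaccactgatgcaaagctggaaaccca
Ehhadh probe: atggccagatttcaggaatgtgttttctat
Acox2 read -3.01, -2.32 and -2.70 in adrenalectomized hearts and -4.11, -4.44 and -3.96 in sham hearts. The groups were far apart for a gene of such low signal, by 1.49 ± 0.21 (SE, adjusted p = 0.0918). In unscaled processed signal this was 95.2, 168 and 123 intensity units in adrenalectomized hearts and 38.6, 29.8 and 59.6 in sham hearts. The probe was well above background on all 3 adrenalectomized arrays and on 2 of 3 sham arrays, and it was the 1 member whose representing probe missed that mark on any array.

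Within slide 1 the Acox2 difference was 1.16 (adjusted p = 0.235). It passed the threshold where arrays were weighted by their quality (1.60, adjusted p = 0.0475) and turned to -0.41 under normexp background correction (adjusted p = 0.168), the 1 alternative of 20 in which its sign changed. The direction thus depended on the background correction.

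Ehhadh and Hsd17b4 are the bifunctional enzymes that carry out the middle steps of peroxisomal beta-oxidation, on different stereoisomers. Ehhadh read -0.03, -0.29 and -0.12 in adrenalectomized hearts and -0.62, -0.86 and -0.51 in sham hearts. The 3 adrenalectomized hearts lay together above the sham hearts, with a difference of 0.52 ± 0.13 (SE, adjusted p = 0.254) that was 0.63 within slide 1. Hsd17b4 read 4.58, 4.80 and 4.53 in adrenalectomized hearts and 4.38, 4.30 and 4.19 in sham hearts. It was higher in every adrenalectomized heart, by 0.34 ± 0.12 (SE, adjusted p = 0.341), and by 0.28 within slide 1. The other 2 members of the role overlapped between the groups. Acox3, another oxidase for branched chains, differed by 0.03 ± 0.10. The thiolase Acaa1a differed by -0.01 ± 0.13 with its brightest probe, by 0.26 ± 0.10 with a second probe whose groups did not overlap, and by 0.05 with the third.

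Thioesterases split acyl-CoA back into free acid, and the uncoupling proteins lie in the inner mitochondrial membrane. The groups overlapped for all 5 genes, and the median difference was -0.01. Acot1 (cytosolic) and Acot2 (mitochondrial) are close paralogs that lie side by side, and the first 30 of 60 bases of each probe are printed to show that separate sequences were read, at chr12:82013539-82013598 and chr12:81989158-81989217 on the plus strand of mm7:
Acot1 probe: tatcaaaatagtgctgattcaagggctggg
Acot2 probe: ggggaaacctcatatatattatcacaatgt
None of the 57 member probes shared a run of 20 bases with a probe of another gene, and binding of a paralog's transcript was not tested. Acot1 read 3.36, 2.91 and 2.79 in adrenalectomized hearts and 3.44, 3.58 and 3.23 in sham hearts. It had the most negative difference of the 39 genes, -0.40 ± 0.18 (SE, adjusted p = 0.428), and adrenalectomized replicate 1 overlapped the sham hearts. Its sign was negative in all 21 alternatives, some of which could not change it. The difference was only -0.06 within slide 1 and -0.04 under normexp background correction. Acot2 differed by 0.08 ± 0.13, and Acot7, a further cytosolic thioesterase, by -0.19 ± 0.12.

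Ucp3, the muscle uncoupling protein, read 0.82, -0.09 and 0.98 in adrenalectomized hearts and 0.11, 0.01 and 0.11 in sham hearts. Adrenalectomized replicates 1 and 3 were well above the sham hearts and replicate 2 was below them, so that the difference of 0.49 ± 0.27 (SE, adjusted p = 0.502) had a wide interval of -0.15 to 1.14. It was 0.74 within slide 1, 0.83 without adrenalectomized replicate 2 and 0.29 without replicate 3. Ucp2, the widely expressed form, differed by -0.01 ± 0.26.

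Ketone use gave the difference with the smallest p-value in the set and its other 2 genes did not share it. Bdh1 interconverts 3-hydroxybutyrate and acetoacetate in the inner mitochondrial membrane. It was read by 2 probes that do not overlap, at chr16:31131721-31131780 and chr16:31132538-31132597 on the plus strand of mm7, of which the first 30 of 60 bases are printed because both gave the same direction:
Bdh1 brighter probe: tgggtggccctaaacctcagggccaatatg
Bdh1 dimmer probe: tggtcacctcttctttgtattgggaacttc
With the brighter probe Bdh1 read 5.40, 5.24 and 5.28 in adrenalectomized hearts and 4.48, 4.15 and 4.43 in sham hearts. The adrenalectomized hearts lay close together, and the gap to the highest sham heart was wider than the range of either group. The difference was 0.95 ± 0.13 (SE, 95% interval 0.65 to 1.25, adjusted p = 0.086). With the dimmer probe it read 1.82, 1.55 and 1.60 in adrenalectomized hearts and 0.40, -0.24 and 0.66 in sham hearts, a difference of 1.38 ± 0.23 (SE, adjusted p = 0.138 in the fit of 23990 probes). The groups did not overlap on that probe either.

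Within slide 1 the Bdh1 difference was as large, 1.04. Without adrenalectomized replicate 1, where the groups lay on separate slides, it was 0.91 (adjusted p = 0.0884). It was positive in all 21 alternatives, between 0.85 and 1.34, although some of these could not change the estimate. Bdh1 passed the threshold with a variance trend and robust estimation (adjusted p = 0.0358), as the 1 member among 0.0354% of genes called higher, and with array weights (adjusted p = 0.0491), with Acox2, where 0.224% of genes were called higher. Under normexp background correction 8 members were called higher, Bdh1 among them, against 7.2% of all genes. There 37 of the 39 members had a higher mean, while the median difference over all genes was -0.05, so that these calls were not particular to Bdh1.

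Oxct1, the transferase that activates acetoacetate and is the rate-limiting enzyme of ketone use, read 8.19, 8.02 and 8.13 in adrenalectomized hearts and 8.46, 8.52 and 8.01 in sham hearts. The groups overlapped through sham replicate 3, and the difference was -0.21 ± 0.16 (SE, adjusted p = 0.61), or -0.14 within slide 1, and it ran from -0.38 (without sham replicate 3) to -0.12 (without sham replicate 2). The other 2 Oxct1 probes differed by -0.21 and -0.02. With the first of these, every adrenalectomized heart lay below every sham heart, with almost no gap (6.150 against 6.151). Acat1, the thiolase that splits acetoacetyl-CoA, differed by -0.08 ± 0.12.

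**Figure D3:**
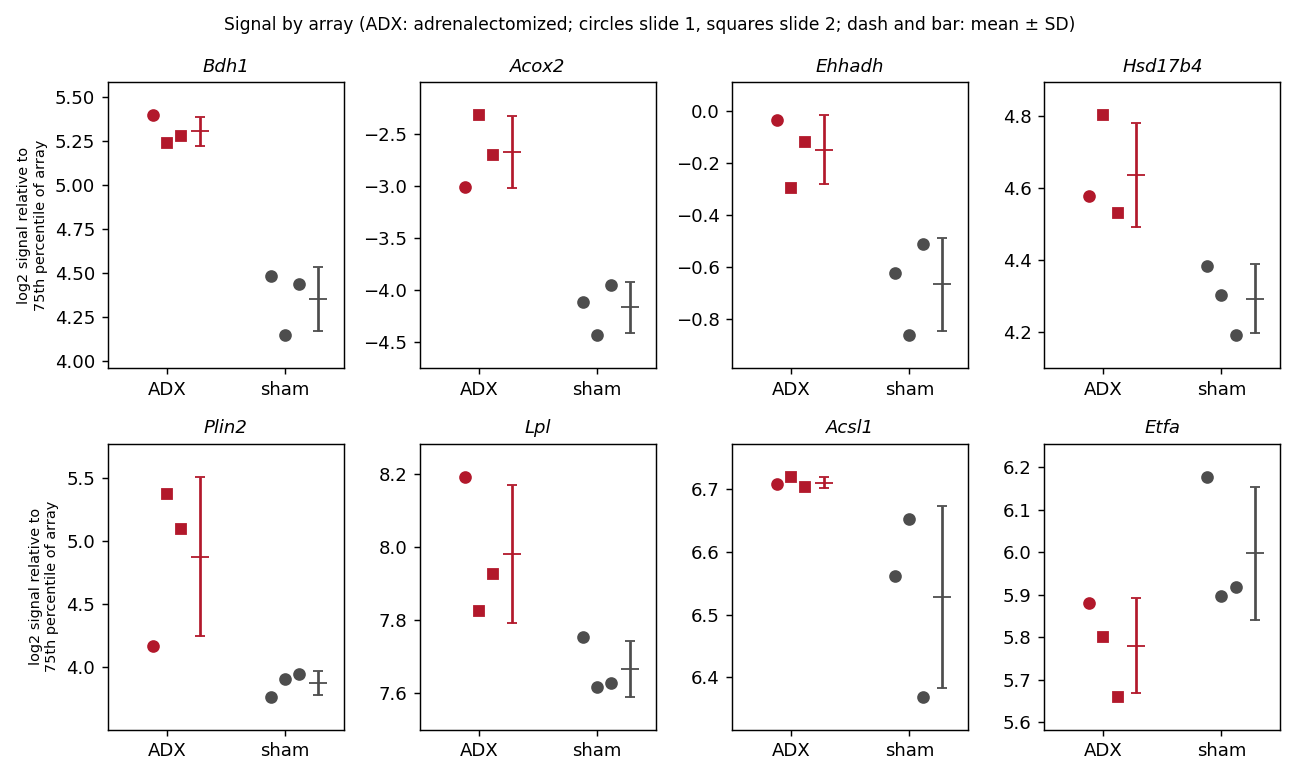
Log2 signal relative to each array's 75th percentile (y axis, a separate scale per gene) for the 8 genes whose groups do not overlap, with adrenalectomized (ADX) hearts left of sham hearts. Circles are slide 1, squares slide 2, and the dash with its bar is the mean ± SD of 3 hearts. For Bdh1 the gap is wider than the range of either group, while for Plin2 the adrenalectomized heart on slide 1 lies near the sham hearts.

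Where a gene had several probes, these often gave different signs. Of 13 genes with more than 1 tested probe, 8 had the same sign on all of them (Bdh1, Cpt1a, Cpt1b, Etfdh, Lpl, Oxct1, Pnpla2 and Ucp2). In the other 5 genes (Acaa1a, Acsl1, Cd36, Decr1 and Hadha) the probes differed in sign. Bdh1 was the 1 gene of the 13 whose groups did not overlap on more than 1 probe. Of the 57 probes, 55 were tested, and the other 2, of Hadha and Ucp2, were above background on 0 arrays.

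**Figure D4:**
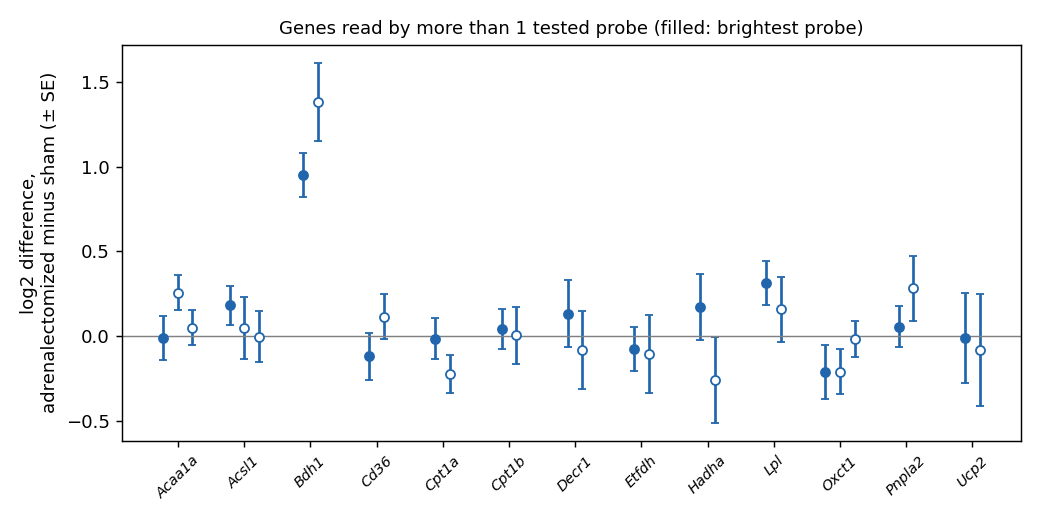
Log2 difference, adrenalectomized minus sham, with its SE (y axis), of each tested probe of the 13 genes read by more than 1 tested probe (x axis). The filled point is the brightest probe, which represents the gene. Both Bdh1 probes lie near or above 0.95, and all other probes lie between -0.26 and 0.32.

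A further list of 50 genes of the same pathways gave the surroundings. Of these, 47 were tested, and Slc27a6, Hacl1 and Acot3 were too dim. None passed the threshold in either direction. In 33 the mean was higher in adrenalectomized hearts and in 14 it was lower, with a median difference of 0.13. Among all genes 43.4% had a lower mean, and the median was 0.03. The groups did not overlap for 4 of the 47, all higher, beside 10.4% higher and 7.95% lower among all genes. At an unadjusted p under 0.05, 6 were higher and 0 were lower of the 47, beside the 6.27% and 5.99% of all genes given above.

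Of these 6 genes, 3 were highest on adrenalectomized replicates 2 and 3, as Plin2 was, but unlike Plin2 they overlapped between the groups. Acaca, which makes malonyl-CoA, read -1.28, 1.63 and 0.87 in adrenalectomized hearts and -2.22, -1.49 and -0.70 in sham hearts. Acsl5, another acyl-CoA synthetase, read 1.02, 2.29 and 1.79 in adrenalectomized hearts and 0.74, 0.78 and 1.12 in sham hearts. Lipe, the hormone-sensitive lipase, which is also one of the adipocyte markers counted above, read 0.18, 1.14 and 0.97 in adrenalectomized hearts and -0.07, 0.16 and 0.32 in sham hearts. In each, adrenalectomized replicates 2 and 3 were the highest and replicate 1 lay within the sham range, as the adipocyte markers Adipoq and Plin1 did, and the part of fat cells was not tested. Mgll, the lipase that completes triglyceride breakdown, and Acot9, a mitochondrial thioesterase, did not overlap between the groups, with differences of 0.40 ± 0.14 (SE, adjusted p = 0.353) and 0.27 ± 0.10 (SE, adjusted p = 0.355). Mgll too was highest on adrenalectomized replicates 2 and 3 (5.29 and 5.40), while replicate 1 (5.15) lay close to the highest sham heart (5.13). Slc27a4, a fatty acid transport protein, differed by 0.35 ± 0.14 (SE, adjusted p = 0.394).

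The upstream windows of the genes were searched for the letters that nuclear receptors bind, since fatty acid genes are known PPAR targets and adrenalectomy removes the ligand of the glucocorticoid receptor. Windows of 250 bases before to 50 after a gene's start came from RefSeq (GRCm38.p6) and held 32 of the 39 members. The PPAR element, read as AGGTCANAGGTCA on either strand, was in 0 of the 32 and in 0.0396% of all windows. The palindrome of the glucocorticoid receptor, read as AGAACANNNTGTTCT, was in 0 of the 32 and in 0.00913% of all windows. The single half-site AGGTCA, which the first motif contains, was in 6 of the 32 (18.8%), namely Acadm, Acadvl, Cd36, Cpt1a, Plin2 and Ucp3, against 18.1% of all genes. Plin2 was the 1 of these 6 with an unadjusted p under 0.05, and its half-site begins 218 bases before the gene's start. It is shown in capitals, as read on the opposite strand, in the first 100 bases of the window, chr4:86670210-86670309 on the minus strand of GRCm38.p6:
Plin2 upstream: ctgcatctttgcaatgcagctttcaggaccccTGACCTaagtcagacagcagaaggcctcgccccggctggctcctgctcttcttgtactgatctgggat
A match of letters in these windows describes the sequence and does not show binding.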

How the data were processed

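Per the labels' protocols, heart RNA was amplified, labelled with Cy3 and hybridised to 1 array per heart. The deposited processed signal is a linear intensity, background-subtracted within its array and not normalized between arrays, made with Feature Extraction 9.5.3.1 (protocol GE1-v5_95_Feb07) and probes placed on mm7, per the file headers. The deposited value table repeats the scanner's intensity for all 45018 spots, so its scale is linear and not centred. Its medians were 75.1, 92.2 and 80.9 in adrenalectomized and 70.8, 68.1 and 84.4 in sham samples.

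From these intensities log2 values were taken here, each array's 75th percentile over noncontrol spots was subtracted, 80 to 133 outlier spots per array were dropped, and repeat spots were averaged. A probe was tested if 1 group or both had it well above background on all 3 arrays. That left 23990 probes for 16949 genes. RefSeq accessions named 22951 probes, and 18223 kept the array's name. Groups came from the labels, and the design text calls the replicates biological. A label gives 6 months as the age of mice operated on at 1 month and kept for 6 more. Differences were fitted with limma 3.58.1 (lmFit, eBayes) in R 4.3.3, adjusted by Benjamini-Hochberg over all genes, with a threshold of 0.05. The code was tested on simulated data. The number of arrays limits the precision.

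The members, the further pathway genes, the markers and the tests were chosen with earlier results of these data known. Array values were given for members whose groups did not overlap or with an unadjusted p under 0.05, and for at least the 2 members of smallest p per role. Other pathway genes were named at an unadjusted p under 0.05. Of the markers, the adipocyte examples were chosen after their values were seen. The counts without Acox2 and the adipocyte sums without Cox7a1, Cox8b and Fabp4 were also chosen after seeing the data. Markers of skeletal muscle, endothelium, fibroblasts, macrophages and liver were also examined. None of these genes passed the threshold, and the median differences of the lists were -0.17, -0.20, -0.24, -0.11 and 0.77. The liver value rests on 2 tested markers of 5, Fgb and Cyp2e1, whose groups overlapped, while Alb, Apoa1 and Ttr were too dim. Fgb was well above background on 1 sham array and entered the test through the adrenalectomized arrays. Exon and UTR positions of probes were not looked up, since no mm7 annotation was used here. Alternatives were other background corrections, scalings, filters, probe rules, slide and replicate blocks, variance models, left-out arrays and thresholds.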

Additional observations from a re-analysis of the deposited data

How the results depend on the processing

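Counts of members past the threshold were 0 higher and 0 lower as reported. The number higher was 8 with normexp background correction (offset 50), where 1220 of all genes were called higher and 4731 lower against 5 and 2 as reported. It was 1 with a variance trend and robust estimation (6 and 7 over all genes), 2 with array weights (38 and 37) and 2 at an adjusted p of 0.1. In both of these last cases the 2 were Bdh1 and Acox2, and Acox2 entered the test through the adrenalectomized arrays. With 1 array left out the number of members higher was 0 to 1. The 1 was Plin2 (1.36) without adrenalectomized replicate 1, where 39 of all genes were higher and 3 lower. In that fit the groups lay on separate slides, so that group and slide cannot be told apart. Over all genes, slide 1 alone gave 41 higher and 2 lower, and the other settings gave 0 to 5 higher and 1 to 6 lower. No setting gave a member lower. The median difference of -0.01 became 0.31 with normexp, and 0.13 both with the slide as a fixed block and within slide 1, which rest on 1 adrenalectomized array. With 1 array left out it ran from -0.06 to 0.04. Signs reversed under normexp for Etfa (0.18), Acox2 (-0.41), Cpt2 (0.21), Crat (0.26), Eci1 (0.16), Etfb (0.20) and Oxct1 (0.15), and under quantile normalization for Etfb (0.0059). With the slide block and within slide 1 they reversed for Pnpla2 (-0.087) and Crat (0.18). With 1 array left out, Crat ran from -0.216 to 0.035, positive without sham replicate 3 and without adrenalectomized replicate 3 (0.032), and Pnpla2 ran from -0.028 (without adrenalectomized replicate 2) to 0.128. The causes were not tested. Of the named members, Bdh1, Ehhadh, Hsd17b4, Lpl, Plin2, Acsl1, Acads and Ucp3 were positive in all 21 alternatives run. These are not 21 separate checks. The deposited value table, the replicate block and the variance trend could not change a difference, and the fixed slide block repeats the difference within slide 1. The other filters on dim probes and the kept outlier spots left the differences of these genes as reported. Averaging the tested probes could not change a gene with 1 probe.

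Same-numbered samples deviated together with correlations of 0.16, 0.16 and -0.16 across genes. Deviations of so few samples per group depend on one another, so these correlations cannot decide whether same-numbered samples were paired. With the replicate block 0 members were higher and 0 lower, the median stayed at -0.01, Bdh1 had an adjusted p of 0.198, and 0 genes were higher and 1 lower over all genes. Not every array correlated best with its own number.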
